A study of Mus musculus with 8 samples.

Results

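Transcript levels of 10 genes of cartilage were followed in injured and sham-operated mouse Achilles tendon. They were chosen by gene symbol and fall into 7 matrix genes (Acan, Hapln1, Matn2, Matn3, Col2a1, Col11a1 and Col11a2) and the 3 genes of the Sox trio (Sox5, Sox6 and Sox9). All 10 had values, each in 1 row, among the 15747 genes with values. The comparison asks which cartilage-type transcripts differ after the tendon is cut in part, and the title of the study names both stem cell differentiation and matrix composition.

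RNA was sequenced from the Achilles tendon, dissected off the soleus muscle, of C57BL/6J mice with a wild-type genotype, 4 libraries after an injury and 4 after a sham operation. In the injury group, an ear punch with a diameter of 1.5 mm cut part of the tendon from its lateral side and left a semicircular gap of 0.75 mm. What the sham operation included, the age and sex of the mice and the time from operation to sampling are not given in the labels used here. Since separate animals are not stated for the libraries, all p-values rest on the spread between libraries alone, and that spread may be technical. Each gene has 1 normalised read count per library. Library sums were 14568669 to 16263086 after injury and 13596488 to 15545903 after sham operation.

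In cartilage, the transcription factor SOX9 switches on the chondrocyte programme, and SOX5 and SOX6, a closely related pair without an activation domain of their own, bind next to it and strengthen its action on matrix genes. Collagen II fibrils, with collagen XI in their core, give the tissue its tensile frame, while aggrecan, held to hyaluronan by link protein, draws in water and bears compression. In tendon these genes are best known from fibrocartilage, where the tendon joins bone or is pressed against it. Transcripts of the same genes in healing tendon are of interest because cartilage-like tissue can form there.

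Upstream sequences of 4 of the genes with a RefSeq window are shown. They come from genes with steep rises (Acan and Matn3), the highest level (Col11a1) and the fall (Sox6). Each is the 250 bases before a RefSeq start site in GRCm38.p6, 5′ to 3′ on the strand of the gene, and capitals mark a match to ACAAAG, a core sequence bound by SOX factors. The windows are chr7:79052976-79053225 (plus strand) for Acan, chr12:8947679-8947928 (plus strand) for Matn3, chr3:114030290-114030539 (plus strand) for Col11a1 and chr7:116038745-116038994 (minus strand) for Sox6. The start site of Acan in RefSeq lies 257 bases upstream of the gene start in GENCODE M21.
Acan: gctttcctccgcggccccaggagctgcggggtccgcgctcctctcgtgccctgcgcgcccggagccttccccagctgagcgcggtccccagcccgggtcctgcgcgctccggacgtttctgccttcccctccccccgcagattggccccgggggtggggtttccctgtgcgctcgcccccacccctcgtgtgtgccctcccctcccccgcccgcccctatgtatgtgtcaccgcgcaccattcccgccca
Matn3: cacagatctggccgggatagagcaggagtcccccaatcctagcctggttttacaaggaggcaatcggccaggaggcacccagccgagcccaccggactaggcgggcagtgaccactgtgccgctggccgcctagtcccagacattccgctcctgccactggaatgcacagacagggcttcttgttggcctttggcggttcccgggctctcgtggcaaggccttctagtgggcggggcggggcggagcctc
Col11a1: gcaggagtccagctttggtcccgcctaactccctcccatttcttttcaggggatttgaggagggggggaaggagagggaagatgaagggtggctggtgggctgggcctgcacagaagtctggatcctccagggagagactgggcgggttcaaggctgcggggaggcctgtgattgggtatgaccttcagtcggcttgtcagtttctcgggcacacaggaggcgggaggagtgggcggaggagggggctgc
Sox6: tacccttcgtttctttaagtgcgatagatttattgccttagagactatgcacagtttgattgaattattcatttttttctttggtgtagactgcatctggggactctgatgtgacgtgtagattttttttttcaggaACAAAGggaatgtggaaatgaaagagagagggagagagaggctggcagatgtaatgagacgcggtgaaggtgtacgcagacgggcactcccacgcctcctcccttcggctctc

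RefSeq windows were found for 7 of the 10 genes, 12 windows in all, and were searched on both strands for AACAAT and ACAAAG. Col2a1, the member with the largest fold change, had no window, nor had Matn2 and Sox9. None of the windows of the 5 matrix genes found (Acan, Hapln1, Matn3, Col11a1 and Col11a2) held either motif. The window of Sox5 held neither. Of the 6 windows of Sox6, 5 held ACAAAG and 1 also held AACAAT. These windows belong to the same gene and have a GC content of 34 to 60.8%, against 54.4 to 74.4% in the matrix gene windows. Whether their matches exceed those of windows of like composition was not tested. Over all 32851 windows of the same length, 9.42% held AACAAT, 16.5% held ACAAAG and 24% held either, so a set of 5 windows without a match is no result about these genes. The motifs share the letters ACAA, but no match found in these windows overlapped another. A match of 6 letters describes the sequence only, and a missing match says only that these letters are not in this window.

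Libraries were first checked against the tissue named in the labels. All 8 genes of a tendon list (Scx, Tnmd, Mkx, Thbs4, Fmod, Col1a1, Col1a2 and Tnxb) were above 0 in every library, and 5 of them rose, none fell and 3 did not pass. The number that rose was 7 with a minimum mean of 50, with 1 prior variance for all genes or without genes whose exons overlap others, and 3 with the mean of muscle genes as a covariate. Tnmd, encoding the tendon protein tenomodulin, averaged 24299 ± 2103 in injured and 5312 ± 871 in sham tendon. Skeletal muscle transcripts were also present. The 22 muscle genes listed were above 0 in every library, all fell, and their sum was 54023 to 370476 in injured and 896722 to 1766567 in sham libraries. Their share of the library total was 0.371, 0.645, 1.7 and 2.28% in injury replicates 1 to 4, against 7.68, 7.7, 6.6 and 11.4% in sham replicates 1 to 4. In bulk RNA, fewer cells of a type and less RNA per cell cannot be told apart. All 10 slow-fibre genes and all 6 adipocyte genes fell, as did 4 of 5 Schwann cell genes and 3 of 5 endothelial genes, while 4 of 5 macrophage genes rose. Once the muscle covariate was added, 1 slow-fibre gene and none of the Schwann cell genes were lower.

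Of the 10 genes, 8 rose in injured tendon, Sox6 fell and Sox5 was not called at an adjusted p under 0.05 in limma (Benjamini-Hochberg over all genes). Over all genes tested, 28.5% rose and 31.3% fell, and these shares are also the background for the other gene lists. The groups did not overlap for 9 of the 10, against 55.6% of all genes. The median log2 fold change of the 10 was 1.95, against −0.021 over all genes, and 4 of them exceeded a log2 fold change of 3, which 0.603% of all genes reached. The 7 matrix genes together held 0.423 ± 0.0468% of the library total in injured and 0.07 ± 0.0144% in sham tendon (mean ± SD, n = 4 each). For each of the 9 called genes the exact permutation test (two-sided) reached p = 0.0286, which is the lowest possible with 4 against 4 libraries, and for Sox5 it gave p = 0.143.

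**Figure D1:**
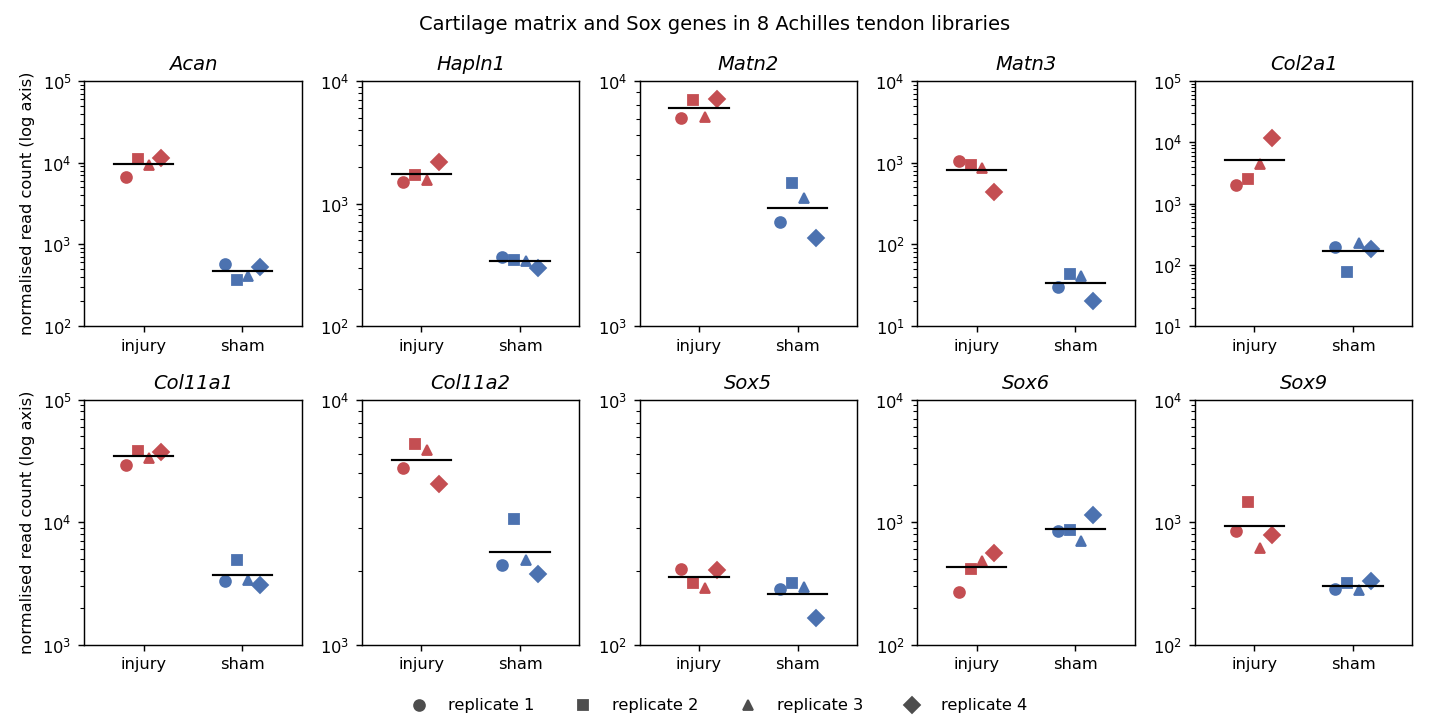
Normalised read counts of the 10 genes (log axis) in 4 injury libraries (red, left) and 4 sham libraries (blue, right), with marker shapes for replicate numbers and black lines at the group means. Sox5 is the gene whose groups overlap, Sox6 lies lower in every injury library (268 to 562) than in every sham library (705 to 1133), and the injury values of Col2a1 run from 1991 to 11931.

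Transcripts of aggrecan and its link protein both rose. Acan, encoding the large chondroitin sulfate proteoglycan aggrecan, lies on the plus strand of chromosome 7 at 79053483 to 79115099 (GRCm38, GENCODE M21). It had 6756, 11182, 9486 and 11427 normalised read counts in injury replicates 1 to 4, against 568, 365, 410 and 533 in sham replicates 1 to 4. The lowest injury library, replicate 1, was still far above the highest sham library. The log2 fold change was 4.36 (SE 0.20), a 20.6-fold rise with an adjusted p of 8.95e-07 in limma, and it was the 29th highest of all genes tested. Hapln1, on the plus strand of chromosome 13, encodes link protein, which fastens aggrecan to hyaluronan. It had 1505, 1719, 1566 and 2175 in injured tendon and 368, 349, 341 and 295 in sham tendon, and rose 5.1-fold (2.35 on the log2 scale, SE 0.12, limma adjusted p = 1.71e-06). Its injury libraries lay within 1.45 times from lowest to highest.

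The balance between them differed between the groups. Within libraries, Acan to Hapln1 had a log2 ratio of 2.46 ± 0.24 in injured and 0.45 ± 0.35 in sham tendon, a change of 2.01 in the ratio (exact two-sided permutation p = 0.0286, adjusted p = 0.0286 over the 8 ratios tested). Per kilobase of exon, Acan stood at 3.55 to 5.14 times Hapln1 in injury libraries and at 0.826 to 1.43 times in sham libraries. Such ratios do not depend on how a library was scaled, but 4 against 4 libraries cannot give a lower p than this one. All 8 pairs were chosen with earlier results known, and the share of all gene pairs that reach this p was not computed.

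The matrilins are adaptor proteins that link collagen fibrils and proteoglycans, and transcripts of the pair measured here moved by different amounts. Matn3, a cartilage matrilin on the plus strand of chromosome 12 (8947929 to 8972028), had 1046, 950, 856 and 436 in injured tendon and 30, 43, 41 and 20 in sham tendon. Replicate 4 was the lowest library of both groups, and the groups were far apart. Matn3 rose 23.6-fold (4.56 on the log2 scale, SE 0.31, limma adjusted p = 7.23e-06). Matn2, a matrilin found in many connective tissues, lies on the plus strand of chromosome 15 and had 7049, 8344, 7158 and 8473 in injured tendon, against 2663, 3834, 3324 and 2296 in sham tendon. Its rise was 2.6-fold (1.38 on the log2 scale, SE 0.16, limma adjusted p = 9.48e-05). Matn2 shares 70 exon bases with 9430069I07Rik on the other strand. That gene had 398 to 581 in injured and 82 to 168 in sham tendon, and the part of its reads in the rise of Matn2 was not tested.

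Matn2 remained the more abundant of the pair. Per kilobase of exon, Matn3 stood at 0.107 to 0.308 of Matn2 in injury libraries and at 0.0181 to 0.0256 in sham libraries. The log2 ratio of Matn3 to Matn2 was −3.31 ± 0.67 in injured and −6.49 ± 0.2 in sham tendon, a change of 3.18 (exact two-sided permutation p = 0.0286, adjusted p = 0.0286 over 8 ratios).

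All 3 collagen genes rose, and they differed in both size and spread. Col11a1, encoding the α1 chain of collagen XI that sets fibril diameter, was the most abundant of the 10 genes per kilobase of exon in injured tendon. It lies on the plus strand of chromosome 3 (114030540 to 114220718) and had 29151, 37917, 33559 and 37501 in injured and 3321, 4898, 3391 and 3044 in sham tendon. The injury libraries lay within 1.3 times of each other, and the rise was 9.54-fold (3.25 on the log2 scale, SE 0.16, limma adjusted p = 1.48e-06). Col11a2, encoding the α2 chain of the same trimer, is on the plus strand of chromosome 17. Its values were 5266, 6585, 6226 and 4537 in injured and 2109, 3264, 2211 and 1932 in sham tendon, a 2.4-fold rise (1.26 on the log2 scale, SE 0.18, limma adjusted p = 0.000291).

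Transcripts of Col11a1 and Col11a2 thus changed unequally. Their log2 ratio was 2.62 ± 0.29 in injured tendon and 0.63 ± 0.03 in sham tendon, where the 4 libraries lay between 0.59 and 0.66. Col11a1 was, per kilobase of exon, at 2.91 to 4.46 times Col11a2 in injury libraries and at 0.809 to 0.85 times in sham libraries. The change in the log2 ratio was 1.99 (exact two-sided permutation p = 0.0286, adjusted p = 0.0286 over 8 ratios). Genes of the fibrillar collagens outside this group, 8 in all, are the background for this rise: 6 rose, none fell and 2 did not pass, with a median log2 fold change of 1.75. Col5a1, whose product can join collagen XI chains in mixed trimers, rose 6.25-fold to 38361 ± 5381 in injured tendon, against 6113 ± 667 in sham tendon. Col5a2 rose 5.51-fold. Col1a2, which had the highest read counts of them, had 1099654 ± 79672 in injured and 403635 ± 126009 in sham tendon, without overlap, and was not called (2.81-fold, adjusted p = 0.133 in limma). That call depended on the settings: with a minimum mean of 50 all 8 genes of the list were called higher, Col1a2 included, and with 1 prior variance for all genes 7 were.

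Col2a1, encoding the collagen of hyaline cartilage, was the most variable member. It lies on the minus strand of chromosome 15 (97975602 to 98004695) and had 1991, 2531, 4408 and 11931 in injury replicates 1 to 4, against 198, 77, 223 and 180 in sham replicates 1 to 4. Replicate 4 held 5.99 times the level of replicate 1 among the injury libraries, and sham replicate 2 was the lowest of all. The log2 fold change was 4.67 (SE 0.55), a 25.5-fold rise with an adjusted p of 0.000106 in limma, and it stayed between 4.15 and 5.01 without any 1 library. Its SD on the log2 scale was 1.15 in injured and 0.69 in sham tendon, above 98.2% and 99.2% of the 13086 genes with a mean of at least 50. The muscle share given above has the same order of injury libraries as Col2a1, and its part in the spread of Col2a1 was not tested. Without injury replicates 3 and 4 and sham replicate 4, which had the highest muscle shares of their groups, the log2 fold change was 3.89, and with the muscle mean as a covariate it was 6.74.

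Relative to Col11a1, Col2a1 gained in injured tendon. Their log2 ratio, Col11a1 over Col2a1, was 3.09 ± 1.06 in injured and 4.51 ± 0.98 in sham tendon, a change of −1.42 (exact two-sided permutation p = 0.0286, adjusted p = 0.0286 over 8 ratios). The groups lay close to each other here, with a highest injury value of 3.9 and a lowest sham value of 3.92, and without the same 3 libraries the change was −0.76. Col11a1 stood, per kilobase of exon, at 2.28 to 10.9 times Col2a1 in injury libraries and at 11 to 46.1 times in sham libraries.

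The collagen IX genes, whose product coats the surface of collagen II fibrils, were low but showed the same order of injury libraries as Col2a1. Col9a1 had 85, 128, 176 and 310 in injured and 9, 13, 8 and 13 in sham tendon, and rose 13.6-fold (adjusted p = 4.06e-05 in limma). Col9a2 had 61, 66, 105 and 140 in injured and 4, 8, 6 and 9 in sham tendon, and rose 11.8-fold (adjusted p = 3.03e-05 in limma). Col9a3 had 112, 120, 223 and 268 in injured and 43, 44, 66 and 31 in sham tendon, and rose 3.73-fold (adjusted p = 0.000845 in limma). Of the 24 genes in the member list and the other cartilage matrix list with values, 6 had injury libraries in this order (Col2a1, Sox6, Col9a1, Col9a2, Col9a3 and Comp), as did 13% of all genes and 21 of the 22 muscle genes. Except for Col9a2, the collagen IX genes and this order were picked out after their values were seen.

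Among other cartilage matrix genes, 14 of 20 listed had values, while Col10a1, Matn1, Hapln2, Hapln4, Snorc and Epyc had none. Of the 14, 9 rose, 3 fell and 2 did not pass, with a median log2 fold change of 1. Matn4, a further matrilin, rose 53.8-fold to 9177 ± 4124 in injured tendon, against 158 ± 23.6 in sham tendon. Ucma and Cnmd, which encode secreted proteins of cartilage and were chosen after their values were seen, rose 3.3-fold and 4.45-fold. Cnmd was low, with 8 to 30 in sham tendon. Cytl1 and Scrg1, also named with their values known, were 2.99-fold and 1.87-fold lower, with overlapping groups. Prg4, named in the same way, was not called (adjusted p = 0.408 in limma). Hapln3, a link protein gene of wider expression, fell to 92 ± 19.4 in injured tendon, against 168 ± 17.7 in sham tendon (1.83-fold lower, adjusted p = 0.000982 in limma). Chad, which encodes chondroadherin and had the highest read counts of the list, had 80128 ± 9460 in injured and 108002 ± 20925 in sham tendon and was not called (adjusted p = 0.213 in limma). The number that fell became 1 on leaving out injury replicate 2, injury replicate 3 or sham replicate 3, and also 1 with the muscle covariate.

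The Sox trio did not move as a group. Sox9, the master regulator of chondrocyte fate, lies on the plus strand of chromosome 11 (112782224 to 112787760). It had 840, 1464, 619 and 784 normalised read counts in injury replicates 1 to 4, against 282, 320, 280 and 327 in sham replicates 1 to 4. Injury replicate 2 stood above the other injury libraries, and the sham libraries lay within 1.17 times of each other. Sox9 rose 2.91-fold (1.54 on the log2 scale, SE 0.22, limma adjusted p = 0.000358) and was called without any 1 library, with log2 fold changes of 1.3 to 1.71. With the mean of muscle genes as a covariate the log2 fold change was 1.11 (SE 0.41) and the call was lost (adjusted p = 0.0744 in limma).

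Sox5 lies on the minus strand of chromosome 6, and an antisense gene, Sox5os1, which had no values, shares 1330 of its exon bases. Its values were 203, 178, 170 and 202 in injured and 168, 178, 172 and 128 in sham tendon. The groups overlapped, and replicate 2 had the same value in both. The log2 fold change was 0.23 (SE 0.12, adjusted p = 0.142 in limma), and no alternative brought it past the threshold. Sox5 stood, per kilobase of exon, at 13.1 ± 1.17 in injured and 11.2 ± 1.58 in sham tendon, the lowest mean of the 10 genes in injured tendon and, after Matn3, the next lowest in sham tendon.

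Sox6, on the minus strand of chromosome 7 (115470872 to 116038796), also acts outside cartilage, where it is known for repressing slow-fibre genes in fast skeletal muscle. It had 268, 416, 481 and 562 in injury replicates 1 to 4 and 844, 858, 705 and 1133 in sham replicates 1 to 4. Every injury library was below every sham library, and Sox6 was 2.09-fold lower in injured tendon (−1.06 on the log2 scale, SE 0.22, limma adjusted p = 0.00285). The call held without any 1 library, with log2 fold changes of −1.21 to −0.85.

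Muscle genes moved with Sox6. Ranked by Sox6 or by the share of the 22 muscle genes, the 8 libraries had the same order, which was found for 2.17% of all genes, for 10 of the muscle genes and for none of the other members. With the muscle mean as a covariate, the log2 fold change of Sox6 was 0.01 (SE 0.18, adjusted p = 0.972 in limma). Sox6 fell less than the muscle genes did, whose mean log2 value was lower by 2.89 in injured tendon. The log2 difference between Sox6 and that mean was −3.63 in injured and −5.46 in sham tendon, a comparison chosen after the values were seen. This difference ran from −2.77 in injury replicate 1 (share 0.371%) to −5.71 in sham replicate 4 (share 11.4%). Because the same 22 muscle genes enter both the difference and the share, a fall of one with the other is largely built in. It is no result about Sox6. Slow-fibre genes fell as well, all 10 of 10, among them Casq2 (5.37-fold lower) and Myh7, a slow myosin heavy chain gene (5.89-fold lower). The part of muscle RNA in the fall of Sox6 was not tested.

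**Figure D2:**
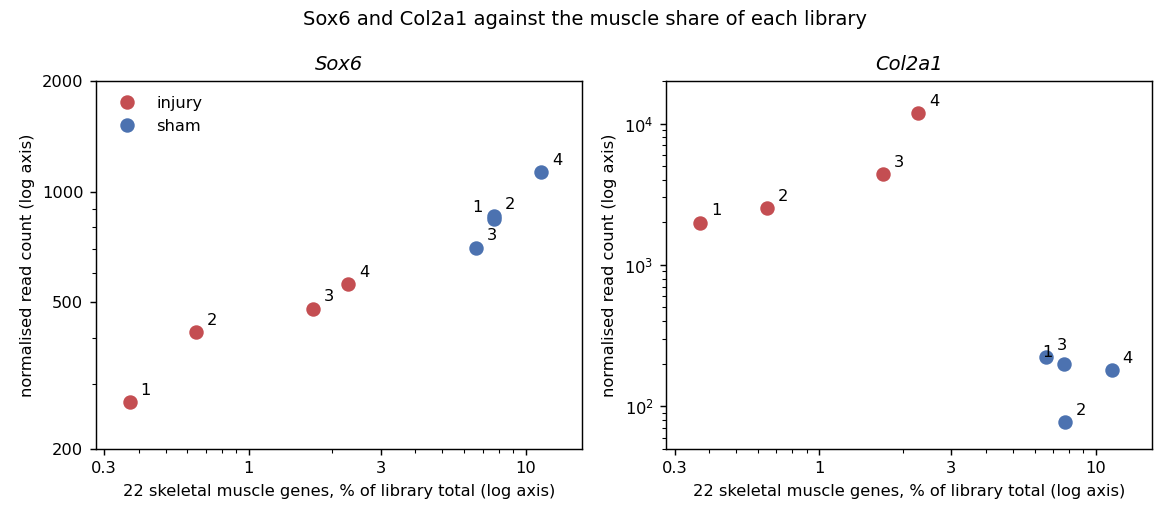
Normalised read counts of Sox6 (left) and Col2a1 (right) in each library against the share of the library total held by 22 skeletal muscle genes (both axes log), for 4 injury (red) and 4 sham (blue) libraries labelled by replicate number. Sox6 follows the order of the muscle share across all 8 libraries, while Col2a1 does so among the injury libraries and has 77 to 223 in the sham libraries, whose muscle share is highest.

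Ratios within libraries set the members of the trio against each other. The log2 ratio of Sox9 to Sox6 was 1.64, 1.81, 0.36 and 0.48 in injury replicates 1 to 4, against −1.58, −1.42, −1.33 and −1.79 in sham replicates 1 to 4. The lowest injury value, in replicate 3, lay far above the highest sham value. Sox9 was, per kilobase of exon, at 4.62 to 12.6 times Sox6 in injury libraries and at 1.04 to 1.42 times in sham libraries. The ratio changed by 2.6 on the log2 scale, that of Sox9 to Sox5 by 1.31 and that of Sox5 to Sox6 by 1.29, each with an exact two-sided permutation p of 0.0286 and an adjusted p of 0.0286 over 8 ratios. With the muscle covariate, the change was 1.1 for Sox9 to Sox6 and 0.03 for Sox5 to Sox6.

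Within libraries, Acan rose further than Sox9. Their log2 ratio, Acan over Sox9, was 3.43 ± 0.54 in injured and 0.61 ± 0.34 in sham tendon, a change of 2.82 (exact two-sided permutation p = 0.0286, adjusted p = 0.0286 over 8 ratios). In injury replicates 1 to 4, Sox9 had 840, 1464, 619 and 784, and Acan had 6756, 11182, 9486 and 11427. The order of these libraries thus differed between the genes.

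**Figure D3:**
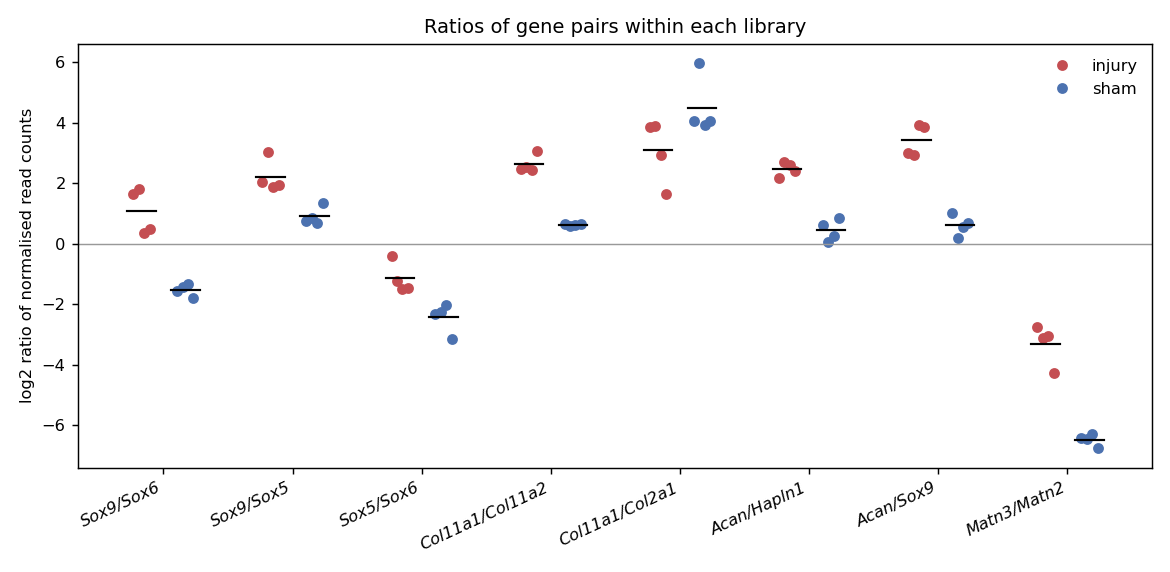
Log2 ratios of normalised read counts for 8 gene pairs within each library, with injury libraries (red) left of sham libraries (blue) and black lines at the means. Groups do not overlap for any pair, 7 ratios are higher and Col11a1 to Col2a1 is lower in injured tendon, and the sham values of Col11a1 to Col11a2 lie between 0.59 and 0.66. The pairs were chosen with earlier results known. The share of all gene pairs without overlap was not computed, and 55.6% of single genes had none.

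**Figure D4:**
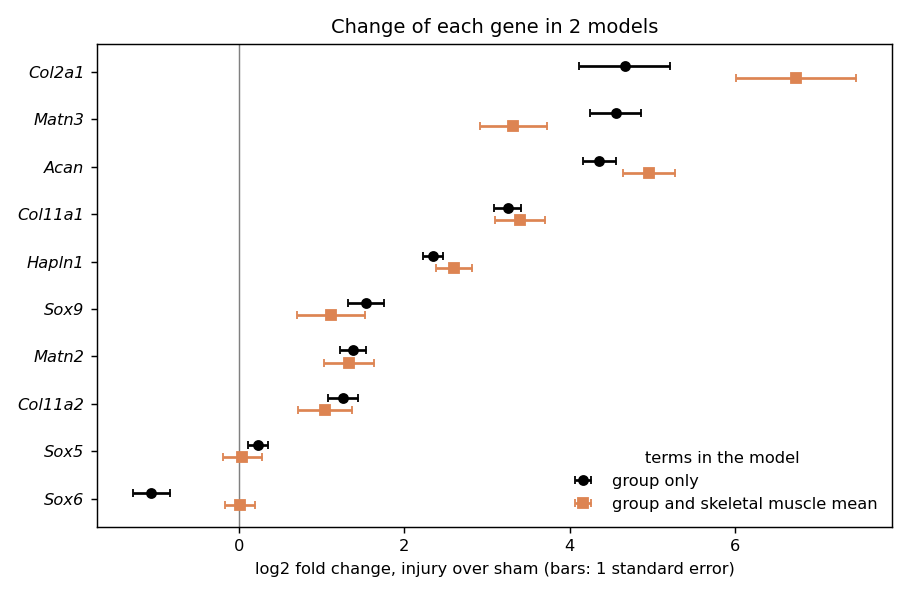
Log2 fold change of each gene, injury over sham, with 1 standard error, from limma with the group only (black circles) and with the mean of muscle genes added (orange squares). With the added term Sox6 moves to 0.01, Matn3 to 3.32 and Col2a1 to 6.74, and 7 genes are called higher and none lower.

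With the muscle covariate, 7 of the 10 genes were called higher and none lower, where 14.2% of all genes were called higher and 10.9% lower. The log2 fold change of Matn3 was 3.32 in that model and that of Acan 4.96, both still called (adjusted p = 0.000687 and adjusted p = 2.48e-05 in limma). Log2 fold changes of Hapln1, Matn2, Col11a1 and Col11a2 stayed within 1.04 to 3.4, also called. The muscle share did not overlap between the groups, so injury and muscle share cannot be told apart in these libraries.

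Of 15 further regulators of cartilage, 13 had values, 7 of which rose, 3 fell and 3 did not pass. Runx2 and Runx3, transcription factor genes of chondrocyte maturation and bone, rose 3.07-fold and 2.88-fold. Runx2 averaged 238 ± 39.6 in injured and 77.8 ± 18.2 in sham tendon. Barx2, encoding a homeobox factor, was 5.83-fold lower at 52.5 ± 14 in injured tendon, against 308 ± 68.8 in sham tendon. Wwp2, which had the highest read counts of the list, encodes a ubiquitin ligase and rose 1.62-fold (0.38 on the log2 scale and not called with the muscle covariate, adjusted p = 0.417 in limma). Sox8, a relative of Sox9 picked with its values known, had 22 to 35 in injured and 23 to 38 in sham tendon and was not called. Sox10, named in the same way, was among the 3 that fell, with overlapping groups, and was also counted among the Schwann cell genes. With the muscle covariate its log2 fold change was 0.14 (adjusted p = 0.892 in limma). The 3 that fell became 1 and the 7 that rose became 4 with the muscle covariate.

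Genes that act on aggrecan were set in the same comparison. Of 10 genes of aggrecan turnover, 7 rose, 1 fell and 2 did not pass, where 28.5% of all genes rose and 31.3% fell. Without any 1 library, 6 to 7 rose, and with the muscle covariate 5 were called higher and 1 lower. The collagenase gene Mmp13 rose to 4925 ± 2273 in injured tendon, against 16.5 ± 6.86 in sham tendon, and the stromelysin gene Mmp3 rose 18.1-fold. Adamts4, an aggrecanase gene picked with its values known, had 355, 346, 638 and 659 in injured and 55, 67, 80 and 134 in sham tendon (5.95-fold higher, adjusted p = 0.000126 in limma). It rose most among the Adamts genes listed, the rest of which are also named with their values known. Adamts15 rose 2.88-fold, Adamts9 1.62-fold and Adamts5 1.3-fold, while Adamts1 and Adamts8 were not called. The call of Adamts5 was lost without sham replicate 2 or injury replicate 1, 3 or 4, and with the muscle covariate. Adamts9 also lost its call with the muscle covariate (adjusted p = 0.0752 in limma). Timp3, which encodes an inhibitor of aggrecanases and had the highest read counts of the list, was 1.54-fold lower, at 9989 ± 820 in injured and 15691 ± 3465 in sham tendon.

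Among hyaluronan partners of aggrecan, 8 of 9 genes listed had values, and 5 rose, 2 fell and 1 did not pass. Once the muscle covariate was added, 3 were called higher and 1 lower. Cd44, the main hyaluronan receptor, rose 2.36-fold to 2146 ± 300 in injured tendon, against 902 ± 41.3 in sham tendon. Has1, encoding a hyaluronan synthase, rose 2.6-fold. Vcan, encoding versican, a relative of aggrecan, had 2107 to 4177 in injured and 1284 to 1578 in sham tendon (2.05-fold higher, limma adjusted p = 0.00106). Hapln3 and Has3, the second named with its values known, were the genes that fell, and the call of Has3 was lost on leaving out injury replicate 3, injury replicate 4, sham replicate 2 or sham replicate 3, which leaves 1 gene, as does scaling by upper quartiles.

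Per kilobase of exon, the order of the members changed between the groups. In injured tendon Col11a1 led at 2710 ± 321 normalised counts per kilobase, followed by Acan at 1300 ± 288 and Matn2 at 1238 ± 121, which overlapped in their ranges (905 to 1530 and 1125 to 1353). Col11a2 had 822 ± 135 and Col2a1 564 ± 497, whose range of 215 to 1291 took in that of Col11a2. Hapln1 (295 ± 51.3), Matn3 (273 ± 89.2) and Sox9 (224 ± 89.5) lay close together, with Sox6 at 29.1 ± 8.39 below them. In sham tendon Matn2 led at 484 ± 109, before Col11a2 at 346 ± 87.5 and Col11a1 at 287 ± 65.6, and these 3 had overlapping ranges. Sox9 (73.1 ± 5.98), Acan (62.8 ± 13), Sox6 (59.7 ± 12.1) and Hapln1 (57.3 ± 5.25) followed as a cluster, with Col2a1 at 18.3 ± 6.94 and Matn3 at 11.1 ± 3.54 at the low end.

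Genes with the most similar pattern over the 8 libraries were listed by the root mean square difference between centred log2 values, among 11972 genes. For Sox9 these were Col24a1, Grin2a, Ccn1, Chst11 and Whrn, with differences of 0.13 to 0.23. Col24a1, a fibrillar collagen gene, had 780, 1426, 681 and 900 in injured and 256, 311, 257 and 279 in sham tendon, with the same high library, injury replicate 2, as Sox9. For Sox6 they were Slc22a23, Dusp10, Chmp4c, Pgk1 and Aamdc, with differences of 0.11 to 0.12. Pgk1, a glycolytic enzyme gene, had 1061, 1312, 1567 and 2143 in injured and 2828, 2920, 2460 and 4439 in sham tendon. For Acan they were Lgr6, Clec4d, Fbn2, Cpxm1 and Megf6, with differences of 0.36 to 0.43. The differences are not scaled for the size of a gene's change, so they cannot be compared between Sox9, Sox6 and Acan.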

How the data were processed

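The 8 bulk RNA-seq libraries were grouped by their titles. The authors deposited a score per gene, a normalised read count per the file headers, already rounded to whole numbers. No count model was therefore used. Per the submitters' processing notes, edgeR 3.12, StringTie 1.3.5, STAR 2.7.6a and Trimmomatic 0.39 were used, and mm10 and mm9 are named without roles. For the normalization method and the strand setting of the counting, nothing is given in the sources used here. The number of reads behind each value is unknown, so no counting interval is given. Of 55450 genes listed, 15747 had values.

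Injury was compared with sham in R 4.3.3 with limma 3.58.1, using log2(value + 1), a prior variance that follows mean expression and no term but group. The filter kept genes at 1 or more in 4 or more libraries, which removed none, and p-values were adjusted (Benjamini-Hochberg) over all genes. The added 1 makes fold changes of low genes too small. Ratios of member pairs were compared by exact permutation tests. The test was tried on simulated data first. Levels per kilobase use exon lengths of GENCODE M21, and positions come from it too. Upstream sequences are from RefSeq (GRCm38.p6).

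Members, gene lists and tests were chosen with earlier results of these data known. Genes named were the members and, for each list, the gene with the highest mean, at most 2 called genes lowest in adjusted p from the commoner direction and 1 from the opposite direction. The 5 genes nearest in pattern to Sox9, Sox6 and Acan were named too, and other names are marked in the text. Alternatives changed the scaling, pseudocount, filter, prior variance, block, muscle covariate, overlapping genes and libraries included. The muscle covariate is the mean log2 value of 22 skeletal muscle genes.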

Additional observations from a re-analysis of the deposited data

Results flagged for a closer look

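In 3 groups of 4 libraries, 1 library stood apart by a gap that took up more of its group's range than Dixon's 95% limit allows. Of 112 groups checked, chance flags about 1 in 20. The log2 ratio of Sox9 to Sox5 was 3.03 in injury replicate 2, against 1.86 to 2.04 in the other injury libraries (gap 0.842 of the range). The log2 ratio of Col11a1 to Col11a2 was 3.05 in injury replicate 4, against 2.43 to 2.53 in the other injury libraries (gap 0.846 of the range). The log2 ratio of Col11a1 to Col2a1 was 5.97 in sham replicate 2, against 3.92 to 4.07 in the other sham libraries (gap 0.926 of the range), where Col2a1 had its lowest value of 77.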

How the results depend on the processing

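Of 19 alternatives, the fit without a filter equals the main fit, because the filter removed no gene. Over all 19, 187 of 189 log2 fold changes of single members kept their direction and their side of the threshold. The exceptions came with the muscle covariate, where Sox6 had 0.01 and Sox9 lost its call at 1.11, and where no member was called lower, 1 other cartilage matrix gene was lower and 3947 genes were called in all, against 9402. The cause was not tested. Leaving out single libraries gave 8 members higher and 1 lower in each fit, 7 to 9 other cartilage matrix genes higher and 1 to 3 lower, and 8641 to 9013 genes called in all. The number of ratios past the threshold was 0 in every fit without 1 library, without injury replicates 3 and 4 plus sham replicate 4, and with the replicate block, since so few libraries or pairs cannot reach 0.05, so these fits say nothing of stability. The changes in the ratios kept their signs there. With the muscle covariate the ratio change was 1.99 for Matn3 to Matn2, −3.34 for Col11a1 to Col2a1 and 3.85 for Acan to Sox9, and the count of ratios was not run because no exact test was made with it. Same-numbered libraries deviated together in 3 of 4 pairs (correlations across genes of 0.249, 0.284, −0.00957 and 0.493), and injury replicate 1 correlated best with sham replicate 3, by 0.256 against 0.249. Since 1 pair lay below 0.1 and no label states a shared source, whether the numbers pair the samples is unsettled, and they were not treated as pairs. With the replicate number as a block, 8 members were higher, 1 was lower and 9742 genes were called. Without genes whose exons overlap those of others, Matn2 could not be tested. Without read depth no counting interval can be given, and the precision rests on the spread between libraries.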
